A study of Mus musculus with 2 samples.

Results

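The 5' partial chains are spliced transcript models of hippocampus RNA that carry the first introns of a longer transcript, in order, and lack its last ones. They were taken from 2 long-read RNA libraries, numbered as biological replicates 1 and 2, of hippocampus of female B6CASTF1/J mice aged 2 months, each library made from 2 µg of total RNA. There is 1 group, with no treatment and no control samples. B6CASTF1/J is a first-generation cross of C57BL/6J and CAST/EiJ, and reads of both parental genomes were counted on the mouse build mm10. The libraries have separate tissue labels and share a donor label, so the spread between them may be technical.

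The members are the multi-exon models that TALON, the program that assigns long reads to transcript models, placed in its class of incomplete splice matches (ISM) with the subtype Prefix in both libraries, with the same gene and the same chain of introns, and with at least 2 reads in each library. This gave 347 chains in 298 genes, out of 20210 multi-exon chains with at least 2 reads in each library and 136523 multi-exon chains of annotated genes found in either. The members were thus chosen by TALON's class, the shared chain and the read counts, and none of these is tested here. At the edge of the rule, 158 members had exactly 2 reads in the library with fewer, among them a Cops7a chain with 8 reads in replicate 1 and 2 in replicate 2. Another 632 chains were Prefix in both libraries but had only 1 read in at least one of them, and the Faah chain with the most reads among these had 11 in replicate 1 and 1 in replicate 2.

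A pre-mRNA is spliced while it is being transcribed, and its 3' end is made by cleavage and polyadenylation downstream of a signal hexamer, most often AATAAA or ATTAAA. When an intron holds a working signal, cleavage there before the intron is removed gives a shorter mRNA that keeps the first exons and ends in what is an intron of the longer form. An intron can also stay in an mRNA that ends at the usual site, which is called intron retention and is common in the brain and in genes of splicing factors. Primers made of T bases can also start cDNA on A-rich stretches inside an RNA.

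The sequences around the ends are shown for a few members of each kind of end, chosen after their values were seen as examples and not as typical of the kind. Sequences were read from GENCODE M21 transcripts (mm10) and are written 5' to 3' on the strand of the gene. In the first set, the last 30 bases before the 3' end in replicate 1 are given, with the signal hexamer nearest the end in capitals where there is one. Mlf2 and Hnrnpa2b1 ended past the next intron and the other 4 with a hexamer inside it, while Cdk17 ended past the next intron with neither hexamer in its last 50 bases. They lie at chr6:124936115-124936144 (+, Mlf2), chr6:51461124-51461153 (-, Hnrnpa2b1), chr9:46202856-46202885 (+, Sik3), chr3:87992514-87992543 (-, Bcan), chr15:66611587-66611616 (+, Phf20l1), chr2:103767107-103767136 (-, Caprin1) and chr10:93241299-93241328 (+, Cdk17).
Mlf2: tgtttatggAATAAAggagaatggaaaaaa
Hnrnpa2b1: aagttttataaAATAAAtacttttgtatcc
Sik3: agggaagttgaAATAAAatggttttcatgg
Bcan: ataaatctgtATTAAActgctttgtaccca
Phf20l1: aagatgaacAATAAAattgtttatttacaa
Caprin1: cactcAATAAAtacttgttgaatgaatgaa
Cdk17: ataataactaaatctctgtgttatataaaa

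The second set shows ends inside coding exons, where the 30 bases after the end are in capitals. They lie at chr16:91654670-91654729 (+, Son), chr5:23485422-23485481 (+, Kmt2e) and chr12:110694145-110694204 (-, Hsp90aa1). Of the first 20 bases after the end, 16 were A in Son, 15 in Kmt2e and 13 in Hsp90aa1. All 3 ends are A-rich (at least 12 A in these 20 bases or a run of at least 6), as were 53.3% of all 15 members that ended inside an exon.
Son: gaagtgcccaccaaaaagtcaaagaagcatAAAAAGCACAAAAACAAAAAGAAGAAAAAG
Kmt2e: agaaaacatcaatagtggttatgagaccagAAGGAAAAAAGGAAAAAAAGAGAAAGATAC
Hsp90aa1: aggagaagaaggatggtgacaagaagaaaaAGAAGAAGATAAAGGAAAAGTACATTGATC

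The third set shows donors, the first bases of an intron, that the members read across unspliced. The last 10 bases of the exon and the first 20 of the intron are given, with the GT that begins the intron in capitals, at chr6:124935436-124935465 (+, Mlf2), chr11:116852001-116852030 (-, Srsf2), chr9:46202061-46202090 (+, Sik3) and chr3:87993035-87993064 (-, Bcan).
Mlf2: agcttctcatGTaagtgcctgagagggaat
Srsf2: taagaaaatgGTaatgtctgcgggaatctg
Sik3: ctgtgcagagGTaatgtggcacctggcagt
Bcan: ccctcatcagGTaattctgctgaaggctca

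Replicate 1 held 826596 reads and replicate 2 held 745492 reads that were not on spike-ins, so 1 read was 1.21 and 1.34 counts per 1000000 reads (CPM). TALON's Prefix class held 3475 models and 6272 reads in replicate 1, which is 0.759% of the reads (exact 95% Clopper-Pearson interval 0.740% to 0.778%), and 3443 models and 6563 reads in replicate 2, which is 0.880% (0.859% to 0.902%). Most of these models had a single read, 76.4% in replicate 1 and 77.2% in replicate 2. Intervals cover counting error only, since the reads carry no molecular identifiers. Markers of the tissue were present at 1651 ± 21.5 CPM for the neuronal Snap25, 1499 ± 135 CPM for the astrocytic Aldoc and 1708 ± 153 CPM for the myelin gene Mbp (SD, n = 2), and of the choroid plexus genes Ttr was at 252 ± 108 CPM while Aqp1 had 0 reads in both libraries, which allows up to 3.63 and 4.02 CPM.

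The members held 2267 reads in replicate 1 and 2154 in replicate 2, or 36.1% and 32.8% of the reads of their class. A member had a median of 4 reads in replicate 1 and 3 in replicate 2, and 38 members had at least 10 reads in each. The chain lengths ran from 1 to 30 introns with a median of 6, and 338 of the 347 chains belonged to protein-coding genes. AC149090.1, a gene on the unplaced scaffold JH584304, alone had 12 members with 150 reads in replicate 1 and 167 in replicate 2. These members share exons, and the sources used here do not say whether reads of near-identical copies were split between genes.

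**Figure D1:**
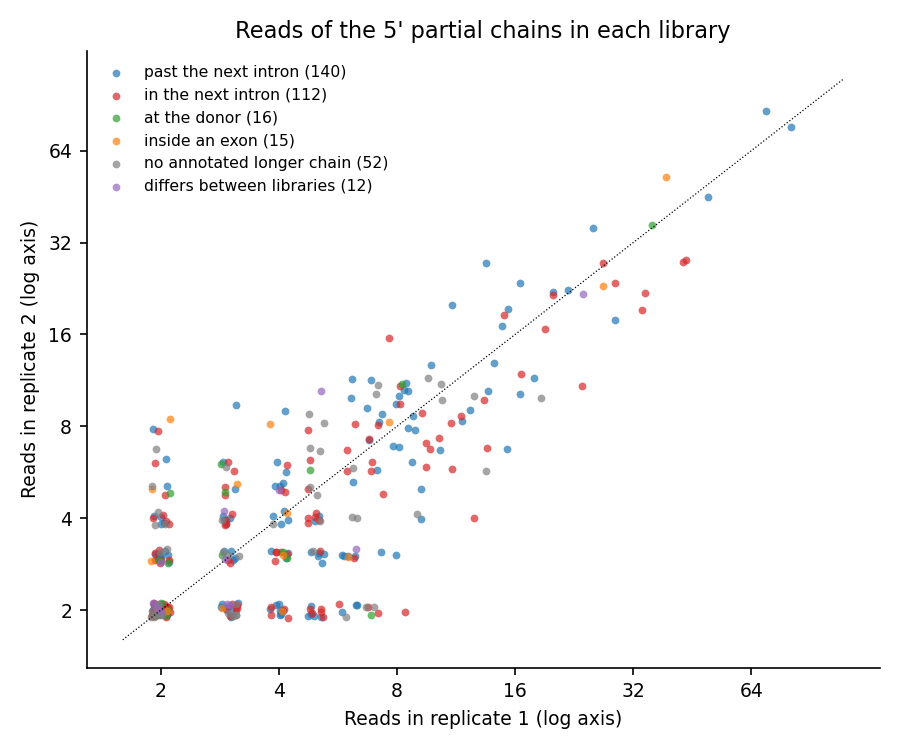
Reads of each of the 347 members in replicate 1 (x axis) and replicate 2 (y axis), both on log axes and with a small random shift so that points do not hide each other. Colours give where the 3' end lies, the number in brackets is the count of members, and the dotted line marks equal counts. Cdk17, with 73 and 87 reads, and AC149090.1, with 83 and 75, stand at the upper right.

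Their 5' ends lay within 10 bases of an annotated transcript start of the gene in 342 members in replicate 1 and 340 in replicate 2, or 98.6% and 98.0%. Among 3860 3' partial chains, which TALON calls Suffix and which keep the last introns of a longer transcript, this share was 27.9% and 27.6%. Among 3971 unannotated chains of annotated genes that are not partial (TALON's classes NIC, new combinations of annotated splice sites, and NNC, with an unannotated splice site), it was 94.4% and 94.5%. Both comparison classes were chosen with the same rule on reads and shared chains. That a Prefix chain begins where its longer transcript begins follows in part from its class.

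Where the 3' ends lay was read against the next annotated intron, the first that the longer transcript removes and the member does not. Of the 347 members, 295 had an annotated transcript with the same first introns and more after them. Few of these ended before or at the donor of that intron, and the largest group ran through the whole intron to an end past its acceptor. Over all 347 members, 285 ends lay inside some annotated exon of the gene in each library (82.1%), most of them in exons past the donor that was not used. In replicate 1, 145 of the 295 (49.2%) ended past the acceptor of the next intron, 117 (39.7%) ended in that intron, 18 (6.10%) ended within 10 bases of its donor and 15 (5.08%) ended inside an exon before the donor. In replicate 2 these were 144 (48.8%), 118 (40%), 17 (5.76%) and 16 (5.42%). The classes were the same in both libraries for 140, 112, 16 and 15 members, and 12 members had ends of different classes. Where several longer transcripts were annotated, an end was called past the intron only if it was so for each of them.

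**Figure D2:**
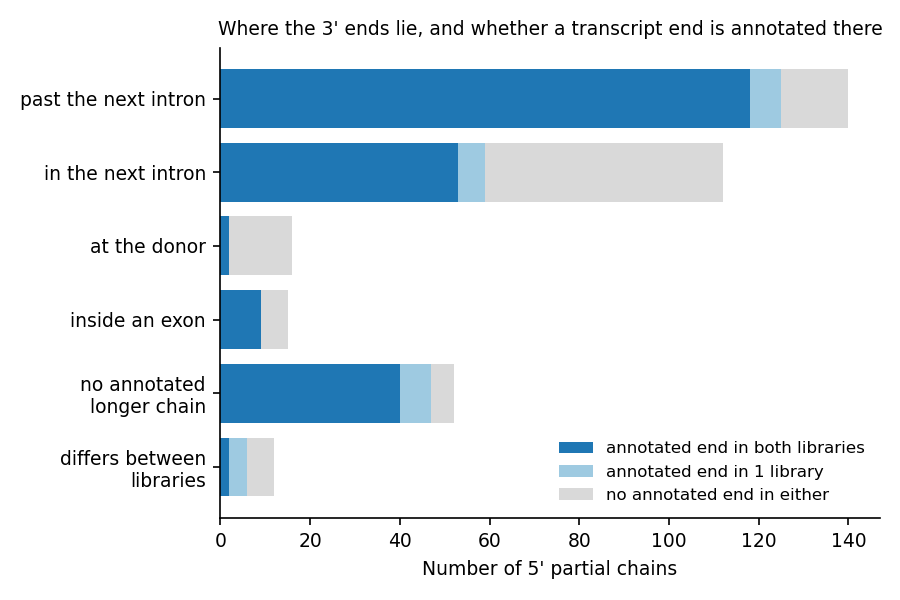
Number of members by where the 3' end lies relative to the next annotated intron, with the classes down the page and the count on the x axis. Dark blue marks ends within 10 bases of an annotated transcript end of the gene in both libraries, light blue in 1 library, and grey in neither. Annotated ends made up 118 of the 140 ends past the intron and 53 of the 112 ends in the intron.

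Members ending past the next intron kept it in the RNA and used an end that was mostly annotated. Of the 140, 111 read through 1 intron of the longer transcript, 23 through 2, 4 through 3, 1 through 4 and 1 through 7. In 98 the only intron not removed was the last one of the longer transcript, and 77 ended within 10 bases of that transcript's own 3' end. The kept introns were short, with a median of 623 bases (quartiles 236 and 1248.5, range 73 to 6378 bases), against a median of 3883 bases (range 168 to 325119) for the next introns of members that ended inside the intron. Intron length enters the classes directly, since a long intron leaves more room to end in. In 54 of the 140 the whole intron lay inside an exon of another annotated transcript of the gene, so that keeping it is itself annotated, though not with the same chain.

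The member with the most reads came from Cdk17, which encodes a cyclin-dependent kinase of the PCTAIRE group. It kept 15 introns and ended at chr10:93241328 (+), and it had 73 reads in replicate 1 and 87 in replicate 2. That was 102.5 ± 20.1 CPM (SD, n = 2). The full transcript Cdk17-201, with 16 introns and the same 3' end, had 133 and 128 reads. The member took 30.9% and 33.2% of the gene's multi-exon reads, and the intron it kept is 544 bases long. The 2 libraries therefore gave like shares for this chain, within each other's counting intervals. Mlf2, which encodes myeloid leukaemia factor 2, had 48 and 46 reads for a chain of 7 introns, against 452 and 405 for the spliced Mlf2-202, and kept an intron of 177 bases. Igsf8, an immunoglobulin-family membrane protein, had 16 and 20 reads in the member, against 255 and 217 in Igsf8-201. For both, the full transcript had most of the reads in each library.

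Some of the named members of this kind came from genes of RNA processing and chromatin. They are examples, since no share was counted for chromatin genes, and that of splicing and RNA-binding genes is given with the gene lists. Srsf2, a splicing factor of the SR family, had a chain of 1 intron that kept an intron of 1059 bases after the end of the coding sequence, with 22 and 23 reads, against 57 and 80 for Srsf2-201. Hnrnpa2b1, an RNA-binding protein that packages nuclear RNA, had 16 and 10 reads in a member with the whole coding sequence before the intron it kept. Ddx5, an RNA helicase, had 13 and 10 reads in a chain of 10 introns that kept 2 introns, against 346 and 321 for Ddx5-201. Pnisr, a splicing-related SR protein, had 14 and 28 reads, ended 1211 bases apart in the libraries, and both ends were annotated. Mbd3, a subunit of the NuRD chromatin complex, had 16 and 24 reads and kept an intron of 76 bases. In all 5 the hexamer AATAAA or ATTAAA was in the last 50 bases in both libraries. The next intron of each of the 5 lay whole inside an exon of another annotated transcript of the gene, so keeping it is annotated. Across the 140 members the coding sequence of the longer transcript ended before the kept intron in 29, was cut by it in 108 and began after it in 1, and in 2 the longer transcript was noncoding.

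Genes of synapses and signalling were among these members as well. Syn1, a synaptic vesicle protein, had 18 reads in replicate 1 and 12 in replicate 2 for a chain that kept the last intron, of 927 bases, against 173 and 134 for Syn1-202. Gria2, an AMPA receptor subunit, had 2 members of 14 introns that kept the last intron of 388 bases, with 14 and 13 reads in one and 10 and 7 in the other. Their ends were at no annotated site and lay 300 and 833 bases apart between the libraries. Camk2b, a subunit of calcium/calmodulin-dependent kinase II, had 7 and 11 reads, against 424 and 405 for Camk2b-209. In both libraries the first 20 bases after the end of the Camk2b member were all A, and the search before it found no signal hexamer. Rasl10a, a Ras-like GTPase, had 30 and 17 reads for a chain of 1 intron, and Rhbdl1, a rhomboid-family protein, had 15 and 17. Rhbdl1 took 12.5% of its gene's 120 multi-exon reads in replicate 1 and 30.4% of 56 in replicate 2, one of the wider gaps among the leading members. The gap lay in the gene's total, since the member's own reads were 15 and 17.

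Members ending in the next intron left a long stretch of intron at their 3' end. The stretch past the donor had a median of 1522 bases in replicate 1 and 1436 in replicate 2. Many of these ends were known: 53 of the 112 lay within 10 bases of an annotated transcript end in both libraries, 41 of these 53 also shared their last intron with the last intron of an annotated transcript, and 53 lay at no annotated end in either. Transcripts of the protein-coding type ended at 27 of the 53 sites and those of the retained-intron type at 21, and a site can have both. Of the 53 at no annotated end, 46 lay outside every annotated exon of the gene in both libraries, 21 had the same last base in both libraries and 36 were within 10 bases.

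**Figure D3:**
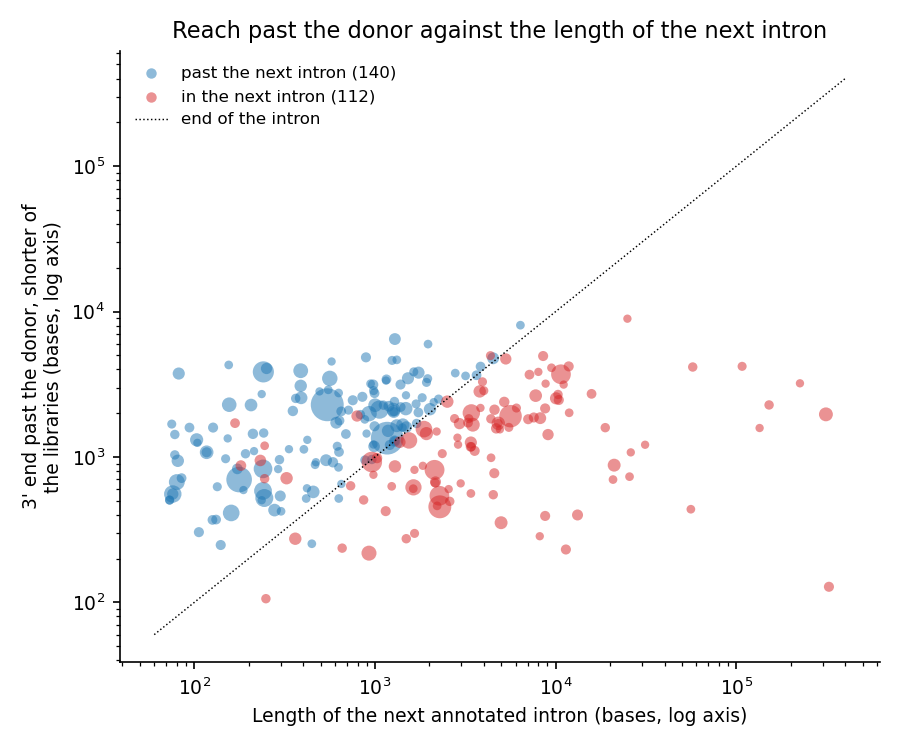
Distance of the 3' end past the donor, as the shorter of the libraries (y axis, bases, log axis), against the length of the next intron in the most-read longer transcript (x axis, bases, log axis). Points are members that ended past the intron (140, blue) or in it (112, red), sized by reads, and the dotted line marks the end of the intron. A few red points lie over the line because they end in the intron of another longer transcript of the gene.

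Kinases and chromatin proteins are described first. Several of them are named because they rank among the 10 highest shares, so their shares describe only these members. Sik3, a salt-inducible kinase, had 35 reads in replicate 1 and 19 in replicate 2 for a chain of 13 of 24 introns, against 6 and 7 for Sik3-204. This was 51.8% ± 10.7 of the gene's multi-exon reads (SD, n = 2). Map3k10, a kinase of the JNK pathway, had 16 and 12 reads for 3 of 9 introns, against 4 and 3 for Map3k10-201. Jade1, a subunit of a histone acetyltransferase complex, had 12 and 9 reads for 8 of 10 introns, which was 49.8% ± 6.75 of the gene. Phf20l1, a reader of lysine methylation, had 19 and 21 reads for 7 of 19 introns, against 1 and 0 for Phf20l1-211. Ankrd11, a chromatin regulator, had 19 and 17 reads in a member of 6 introns, which was 22.9% ± 4.43 of the gene. The members given here of all 5 genes ended within 10 bases of an annotated transcript end and carried a signal hexamer in the last 50 bases in both libraries.

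Other leading members of this class varied in their ends and shares. Synpo, an actin-binding protein of dendritic spines, had 42 and 29 reads for a chain of 1 intron, while Synpo-201, the longer transcript, had 0 in both libraries. Bcan, a proteoglycan of the brain's matrix that astrocytes secrete, had 26 and 27 reads in a member of 7 of 13 introns. Bcan-201 had 153 and 181. This member alone took 9.0% and 7.6% of the gene's multi-exon reads. Another Bcan member, of 5 introns with no annotated longer transcript, ended on the same base with 10 and 11 reads (3.4% and 3.1%). Enpp5, a membrane protein of the nucleotide pyrophosphatase family, had 46 and 28 reads, against 30 and 19 for Enpp5-201. Its member ended 455 and 454 bases past the donor, at no annotated end but inside an exon of another annotated transcript. Caprin1, an RNA granule protein of dendrites, had 24 and 11 reads for 17 of 18 introns. It took 22.0% of its gene's reads in replicate 1 and 9.8% in replicate 2. Cryzl1, a quinone oxidoreductase-like protein, had 35 and 23 reads and a known end, and 2610005L07Rik, annotated as a transcribed pseudogene, had 30 and 23 in a member with a known end. Its level is uncertain, since a pseudogene can share reads with its parent gene.

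Others ended in introns where the annotation has no end. Nav3, a neuron navigator protein, had 13 and 10 reads in a member that ended at chr10:110214739 (-), which was 1963 bases into an intron of 312838 bases. Fam120aos, annotated as a long noncoding RNA, had 15 and 19 reads in its member, which were all of its multi-exon reads. Kif5c, a kinesin heavy chain of axonal transport, had 11 and 8 reads in a member of 22 of 25 introns, against 358 and 343 for Kif5c-201. Ppp3ca, the calcineurin catalytic subunit, had 9 and 7 reads, against 876 and 827 for Ppp3ca-201. Whether or not an end was annotated there, the members of this class reaching farthest past the donor came from Nudcd3, with 2 reads in each library and 8928 bases past the donor, Cdadc1, with 4972, Ankrd11, with a member of 3 introns and at least 4943, Nupl1, with 5 and 8 reads and 4721, and Ntrk2, the BDNF receptor, with 3 reads in each and at least 4198.

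In 11 of the 31 members that ended inside an exon or at the donor, the spliced bases after the end were A-rich in both libraries. Son, a large nuclear-speckle protein that assists splicing, led the 31 with 41 reads in replicate 1 and 51 in replicate 2. That was 55.0% ± 6.14 of its multi-exon reads (SD, n = 2), against 2 and 6 reads for the longer Son-202. All annotated longer transcripts with the same first introns held 25 reads over both libraries. The end of the Son member was the same base in both libraries, at -5881 bases relative to the donor of its exon and 9334 bases from the nearest annotated transcript end. Sec62, part of the channel that moves proteins into the endoplasmic reticulum, had 35 and 38 reads, against 128 and 129 for Sec62-201. The model of this member ended exactly on the last base of its exon in both libraries. Kmt2e, a chromatin protein, had 3 and 5 reads. Ccnl2, a cyclin of the splicing machinery, had 26 and 23 reads in a member whose ends lay 1665 bases apart between the libraries.

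Counted over these members, the 20 bases after the end were A-rich, with at least 12 A or a run of at least 6, in 8 of the 15 that ended inside an exon, in both libraries. For ends at the donor the next bases were read from the spliced longer transcript, since an RNA that had been spliced there would carry them, and 3 of 16 in replicate 1 and 4 of 16 in replicate 2 were A-rich, such as Rtf1, a transcription elongation factor, with 8 and 11 reads, and Eif5b, a translation initiation factor, with 5 and 6. Of consecutive 20-base windows along the longer transcripts of these members, 210 of 7103 (2.96%) were A-rich. Of the 8 A-rich members inside exons, 6 ended within 10 bases of an annotated transcript end in both libraries and 2 at none in either. AATAAA or ATTAAA stood in the last 50 bases of 3 of 14 members inside exons and 2 of 16 at the donor with known sequence. The part that A-rich sequence has in these ends was not tested.

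Ends past the intron had the hexamer in 103 of 129 members in replicate 1 (79.8%) and 102 of 126 in replicate 2 (81.0%) where the 50 bases are known, against 232 of 6914 consecutive 50-base windows of the longer transcripts (3.36%). The same search of one strand at annotated ends of protein-coding transcripts found either hexamer in 50.3% of 49890 windows. At the ends of the 3' partial chains it was 81.7% of known windows in replicate 1 and 81.6% in replicate 2. For the unannotated chains that are not partial it was 81.6% and 81.4%. The share at ends past the intron was thus near that of both comparison classes and is not particular to the members. For ends in introns and over all members, the annotated transcripts covered under 80% of the windows, so the search is void there. The A-rich search past the intron is void too, with 57 of 140 windows known in replicate 1 and 53 in replicate 2. Of the known windows 3 were A-rich in each library, Camk2b among them, so A-rich ends also occur past the intron.

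**Figure D4:**
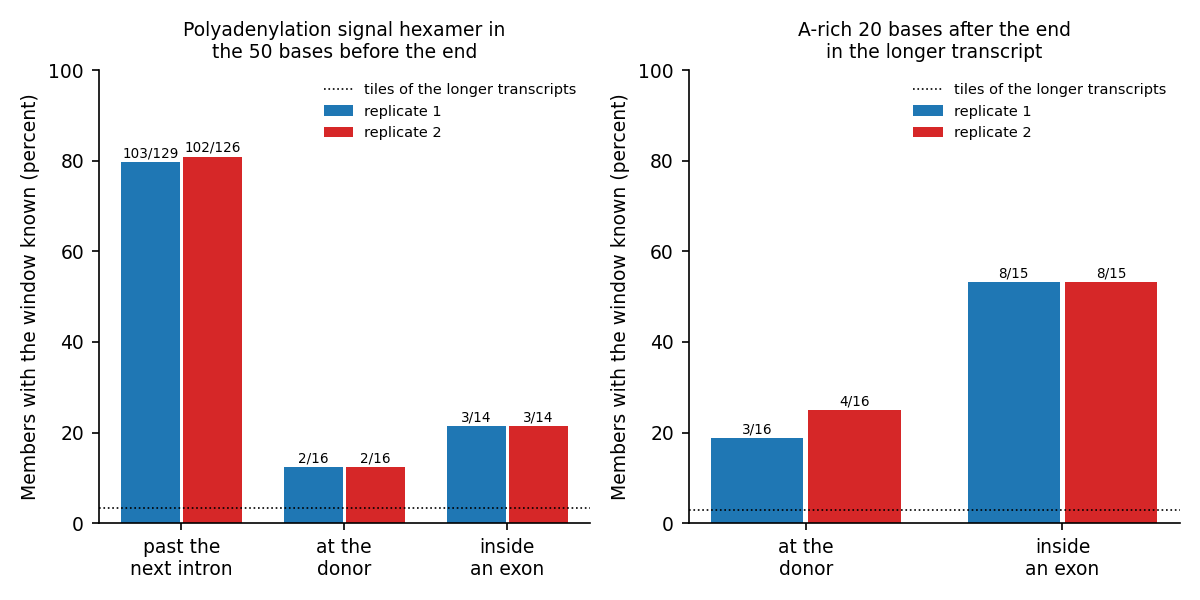
Left, share of members with AATAAA or ATTAAA in the 50 bases before the 3' end, and right, share with an A-rich stretch in the 20 bases after it, in percent, for replicate 1 (blue) and replicate 2 (red). Numbers over the bars are members with the feature out of members whose window is known, and the dotted lines are the shares of windows along the longer transcripts, 3.36% on the left and 2.96% on the right. The hexamer share was 79.8% and 81.0% past the intron, and the A-rich share 53.3% inside exons.

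The remaining 52 members had no annotated longer transcript with their first introns. In each of the 52, and in both libraries, the same library held a longer unannotated or partial model that began with the member's introns, so the class may refer to a model found in the library, which was not tested. Of these, 40 ended at an annotated transcript end in both libraries, and 7 came from AC149090.1. Med14, a subunit of the Mediator complex, had 19 and 10 reads for 28 introns, Commd8 had 13 and 10, and Rbmx, an RNA-binding protein, had 10 and 10. Some chains had different classes in the libraries. A chain of 17 introns of Aplp2, a homologue of the amyloid precursor protein, was Prefix in replicate 2 with 218 reads and NIC in replicate 1 with 241 reads, which puts it outside the members. Camta2, with 142 reads in replicate 2 and 184 in replicate 1, and Trim44, with 132 and 155, were set aside in the same way, and their counts exceed those of every member.

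As shares of their gene, most members were minor forms. In the 279 members whose genes had at least 20 multi-exon reads in each library, the median share was 5.60% (quartiles 2.26% and 10.4%), 72 had at least 10%, and 4 had at least 50%. By class the median was 4.13% for ends past the intron (118 members), 8.30% in the intron (82), 7.40% at the donor (12), 5.65% inside an exon (10) and 3.10% with no annotated longer transcript (48). The highest were Synpo at 57.4% ± 3.74, 2610005L07Rik at 56.1% ± 10.96, Son and Sik3. Nav3 followed Jade1 with 44.1% ± 5.76, then Enpp5 with 40.7% ± 3.28, Med14 with 40.4% ± 10.02, Map3k10 with 40% ± 6.29 and Commd8 with 34.5% ± 1.68 (SD, n = 2). The intervals of neighbours in this order overlap, so the order is not firm. As shares of all reads of the gene, single-exon models included, Synpo had 34.9%, against 53.0% for Son, 44.5% for Jade1, 43.6% for Sik3 and 42.5% for 2610005L07Rik, so that Synpo was then not the highest. Against the most-read longer transcript, 77 of the 295 members with one had more reads in both libraries and 191 had fewer in both. In 37, no annotated longer transcript had any read in either library. Only reads with the whole chain of a longer transcript count for it here. Reads of it that lack its first introns fall in other models, and 3' partial chains held 32358 and 30575 reads. These counts thus do not show that the shorter form exceeds the longer one.

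**Figure D5:**
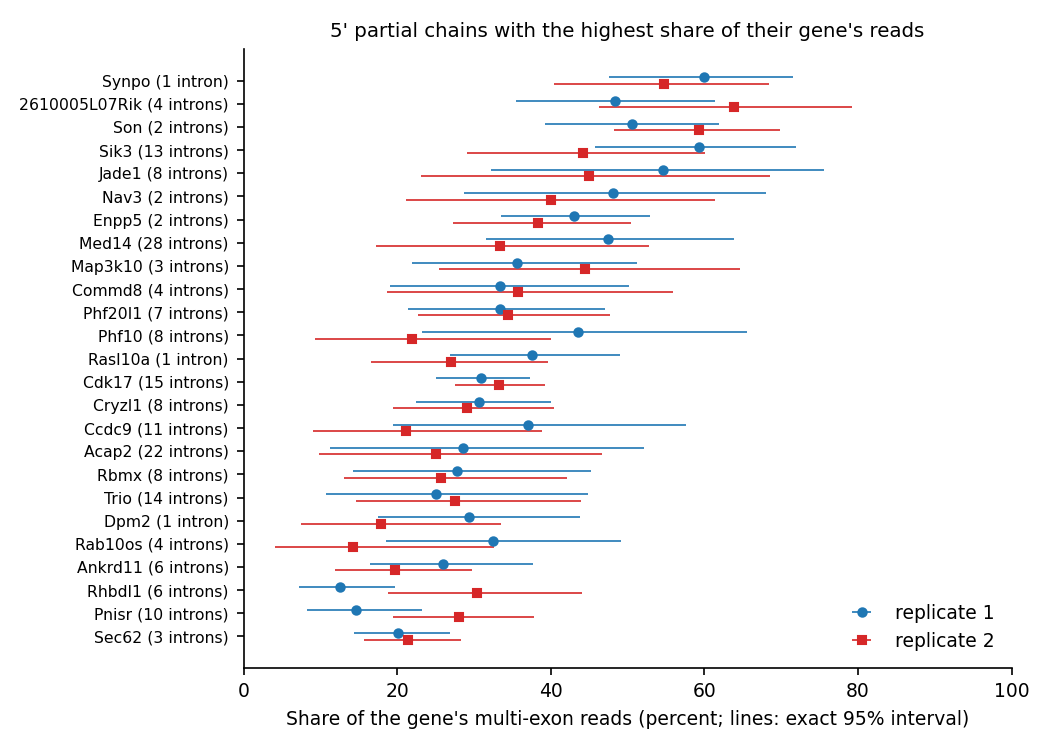
Share of the gene's multi-exon reads, in percent (x axis), for the 25 members of highest mean share (y axis), from genes with 20 or more such reads in both libraries, in replicate 1 (blue circles) and replicate 2 (red squares). Lines are exact 95% intervals of each library's count, which overlap between the libraries for most of the genes. The member of Synpo at the top had 60% and 54.7%.

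The 3' ends of members fell on the same base in both libraries in 236 of 347 (68.0%) and within 10 bases in 275 (79.3%), against 75.3% and 85.4% for the 3' partial chains and 70.3% and 82.4% for the unannotated chains that are not partial. Ends lay within 10 bases of an annotated transcript end in 67.7% of members in replicate 1 and 68.3% in replicate 2, against 91.0% and 91.5% of 3' partial chains and 89.4% and 88.9% of the other unannotated chains. In annotated introns, outside every exon of the gene, were 17.0% and 16.7% of members, against 0.104% and 0.181% of 3' partial chains and 0.806% and 0.755% of the other unannotated chains. These shares are given with no test, since the class chose the members by where they stop. The sources used here do not say how TALON set the end of a model, and ends moved onto annotated positions would fall on the same base. Among the 99 members at no annotated end in either library, 52 had the same last base in both and 69 were within 10 bases, while the farthest apart were 2992 bases.

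Lists of hippocampal and housekeeping functions were counted against all genes with at least 20 multi-exon reads in each library, of which 232 of 5173 (4.48%) had a member. The share of genes with a member was 2.89% at a mean of 20 to 50 such reads and 4.68% at 50 to 100. It was 6.66% at 100 to 200, 8.38% at 200 to 500 and 12% at 500 or more. Depth thus moves with the count, and lists of well-read genes are not to be set beside 4.48% alone. Among glutamate and GABA receptors and their scaffolds 6 of 31 genes (19.4%) had a member, at a median of 85.5 reads per gene, against 51 over all genes. They were led by Gria2 and by Homer3, a postsynaptic scaffold with 7 reads in each library, and also held Dlgap1, a scaffold of the postsynaptic density, with 6 and 4. Among splicing and RNA-binding proteins it was 7 of 51 (13.7%), at a median of 62 reads per gene, with 10 members. Of these 10, 3 came from Ddx5, and 8 kept the whole next intron, against 140 of all 347 members. Among calcium and calmodulin genes, with a median of 183.75 reads per gene, it was 4 of 34 (11.8%): Camk2b, Ppp3ca, the calcium pump Atp2a2 with 6 and 4 reads, and the calcium pump Atp2b1 with 3 and 4.

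Presynaptic vesicle release had 3 of 33 genes (9.09%), among them Syn1 and Syngr3, a vesicle membrane protein with 5 and 2 reads, and both of these kept the whole next intron. Astrocyte genes had 2 of 24 (8.33%), the filament protein Gfap with 3 reads in each library and Ntrk2. Oligodendrocyte and myelin genes had 1 of 15 (6.67%), the RNA-binding protein Qk with 2 and 3 reads. Chaperones, ubiquitin and lysosome genes had 3 of 46 (6.52%): Hsp90ab1 with 6 and 3 reads, Hsp90aa1 with 2 and 3, and Hspa8 with 2 in each. The list of cleavage and polyadenylation factors, which also holds the kinase Cdk13, had 1 of 16 (6.25%) with enough reads. Its members came from Cstf1, with 3 reads in each library and ends 3125 bases apart, and Cdk13, with 2 in each. Cytoskeleton and transport genes had 2 of 43 (4.65%), with members of Kif5c, Kif5b, with 2 and 5 reads, and the microtubule protein Map1b, with 2 and 5. Ribosomal proteins and translation factors had 1 of 41 (2.44%), Eif4a2 with 8 and 10 reads, and energy metabolism had 1 of 45 (2.22%), Uqcrc1 of the respiratory chain with 2 in each. Of the genes with enough reads, the list of microglial, vascular and choroid plexus genes had 0 of 15, and the list of voltage-gated channels and pumps, which does not hold the calcium pumps named here, 0 of 17. No test was run on these shares, and most lists hold a handful of genes with a member. The median reads per gene were 207 for presynaptic release, 164.75 for astrocyte genes and 222.75 for chaperones, ubiquitin and lysosome. Over all lists they ran from 35.75 for cleavage and polyadenylation factors to 324.5 for energy metabolism. At such depths the shares of the presynaptic, astrocyte, myelin, chaperone and cytoskeleton lists were near those of all genes read as deeply. The receptor (19.4%), splicing (13.7%), calcium (11.8%) and polyadenylation lists were above those shares (4.68%, 4.68%, 6.66% and 2.89%). Energy metabolism, translation, channels, and microglial, vascular and choroid plexus genes were below.

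Between the libraries, each chain's split of reads was compared with the split of the totals by an exact binomial test (two-sided), and a chain was called where its p after Benjamini-Hochberg adjustment over all chains tested was under 0.05 and the difference at least 2-fold. Of 7791 chains with at least 20 reads together, 16 were called (0.205%), and of the 45 members among them 0 were called. At an unadjusted p under 0.05, 1 of the 45 (2.22%) and 513 of the 7791 (6.58%) differed. The 1 was Pnisr, with 14 reads in replicate 1 and 28 in replicate 2 (unadjusted p = 0.0134, adjusted p = 0.564, exact binomial test). With TMM or DESeq2 scaling the count of members was again 0. The DESeq2 size factors were 1 in both libraries, so that setting did not correct for depth. The need for at least 2 reads in each library limits how far a member can differ, and the test takes reads as independent.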

How the data were processed

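Long-read RNA sequencing of hippocampus gave, per library, a table of whole-number counts of reads per transcript model and a file of model structures, as deposited by the authors. No normalization was applied to the deposited counts. Per the file headers, the structures name TALON, and the build is mm10 with GENCODE M21 per the deposited text files. The sources used here do not name the aligner, the platform or any tool version. Exon numbers and model lengths in the deposited tables were used as other descriptive values.

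Chains were matched between libraries on gene and introns. ERCC spike-in reads were left out of totals. Only the fraction of each gene's multi-exon reads and CPM were derived from the counts. Each model has 1 end per library, and the ends of single reads are not given. An end counted as at a donor or transcript end within 10 bases. Bases were read from transcripts of GENCODE M21, so a window is known only where annotated exons cover it, and a search with under 80% of windows known is void. The spliced window at donors was chosen after seeing the data. Named genes are the 25 members with the most reads, 10 with the highest share, 10 intronic ones with the most reads, 5 reaching farthest past the donor, and up to 4 per gene list. Rtf1, Eif5b, Kmt2e, Rbmx, Aplp2, Camta2, Trim44, Cops7a and Faah were named after their values were seen where that rule leaves them out. The members and lists were chosen with earlier results of these data known. The library test was tested on simulated data. Python 3.11.15 with scipy 1.17.1, and edgeR 4.0.16 and DESeq2 1.42.0 for scaling only, were used. Some members that the naming rule takes are not reported here.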

Additional observations from a re-analysis of the deposited data

How the results depend on the processing

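No paired analysis was possible because there is 1 group. The number of members was 979 with at least 1 read in each library, 189 with at least 3 and 100 with at least 5, and with 1 library left out the class held 785 to 821 chains. With at least 5 reads in each library, 50.6% of members with an annotated longer transcript ended past the intron, 42.4% in it, 3.53% at the donor and 3.53% inside an exon, 84.5% of all ended in annotated exons, and 74.0% had the same last base in both libraries (78.9% with at least 10 reads). Counting exons of any gene on the strand, 83.3% ended in exons, against 82.1%. A donor tolerance of 5 or 30 bases moved no end. With at least 10 reads together 27 chains differed between the libraries and with at least 50 it was 5, against 16. DESeq2 size factors, which here left depth uncorrected, gave 24 and no fold limit 23, and no setting gave a member. The median share was 4.88% of all reads of the gene, 5.40% without genomic models, and 5.19% to 5.36% in a single library. With 12 signal variants, 92.9% of ends past the intron had a match. The A-rich share inside exons, 53.3% of 15 members, was 40% with at least 14 A, 66.7% with at least 5 reads in each library and 37.1% with the spliced bases of the longer transcript read and members at the donor added. The causes were not tested. Low counts limit most members: 158 had 2 reads in the library with fewer.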
